A study of Mus musculus with 9 samples.

Results

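The 10 genes described here carry or read Notch signals in the gut lining or set the fate of its secretory cells. They were the Notch ligands Dll1, Dll4 and Jag1, the receptor Notch1, the Notch target Hes1, and the transcription factors Atoh1, Gfi1, Sox4, Neurog3 and Neurod1. They were picked by name, with earlier results of these data known, and found by Ensembl identifier in a table of 31685 genes measured by RNA-seq in the jejunum of 9 mice. All were wild-type C57BL/6J mice, which the study's methods describe as males of 6 to 8 weeks, and all tissue was taken on day 3. The control group was 3 untreated mice. The TAI group was 3 mice given a single X-ray dose of 12 Gy to the abdomen (total abdominal irradiation), which the methods describe as also given PBS, and the TAI/IVIg group was 3 mice given the same irradiation and 500 mg/kg of intravenous immunoglobulin, a preparation of pooled human IgG, within 1 h and then every 3 days. Because control mice received no injection according to their labels, irradiation and the vehicle cannot be told apart in the comparisons with control. The comparisons ask how irradiation changed these genes and whether IVIg changed them further.

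Values are FPKM, read counts scaled for exon length and for library size, so that levels of different genes can be set side by side. Library totals, worked out from the FPKM values and GENCODE M21 exon lengths, were 16284531 to 18244739 reads. The read counts of genes given below were recovered from the FPKM values in the same way. Groups were compared on log2(FPKM + 1) with limma, a linear model that draws the spread of each gene toward a trend over all genes. SE is the standard error of a log2 fold change. A gene was called where its p-value, adjusted over 13056 tested genes by the Benjamini-Hochberg method, was under 0.05. The added 1 makes fold changes of low genes smaller than they were. The tissue is labelled as jejunal epithelium, and its enterocyte markers summed to at least 14187 FPKM in every mouse, but 9 smooth muscle markers also summed to 166 to 1123 FPKM and 8 fibroblast markers to 30.7 to 133 FPKM, with none at 0 in a whole group. The libraries therefore held muscle and connective tissue as well. In such bulk tissue, fewer cells of a type and less RNA per cell cannot be told apart.

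In the intestinal crypt, Notch works between touching cells. A ligand of the Delta or Jagged family on one cell binds a Notch receptor on its neighbour, the receptor is cut by ADAM proteases and by gamma-secretase, and its inner part enters the nucleus, where with RBPJ it switches on repressors of the HES family such as HES1. HES1 represses Atoh1, the factor that secretory cells of the goblet, Paneth and enteroendocrine lineages pass through. Cells with Notch signal thus become absorptive or remain progenitors, while ligand-bearing cells with ATOH1 become secretory. Downstream of ATOH1, GFI1 favours goblet and Paneth cells over enteroendocrine cells, and SPDEF matures goblet and Paneth cells. SOX4 acts in early enteroendocrine and tuft progenitors, and NEUROG3 followed by NEUROD1 sets the enteroendocrine fate.

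Irradiated jejunum held more RNA of both Delta ligands and less of Atoh1. Of the 10 genes, 8 passed the filter on low values (1 FPKM or more in 3 mice or more), while Notch1 and Neurog3 did not. Against control, TAI mice had 2 of the 8 called higher (Dll1 and Dll4) and 1 lower (Atoh1). Of all genes tested, 8.81% were called higher and 26.1% lower in that comparison, 34.9% in all. Against the same controls, TAI/IVIg mice had 2 called higher (Dll1 and Dll4) and 2 lower (Atoh1 and Gfi1), beside 9.06% and 37.4% of all genes, 46.4% in all. Gfi1 entered the test only through the control mice, the group where it was highest, so its lower values in irradiated mice were partly set by the filter. At an unadjusted p under 0.05 these counts were 3 higher and 2 lower in TAI, where 46.2% of all genes passed (11.9% higher and 34.3% lower), and 2 higher and 2 lower in TAI/IVIg, where 54.6% passed (10.6% higher and 44.0% lower). The 3 calls in TAI dropped to 1 without control mouse 2, and the 4 in TAI/IVIg dropped to 2 without control mouse 2, control mouse 3 or TAI/IVIg mouse 3. Both comparisons use the same control mice and are given side by side, not as independent evidence. Between TAI/IVIg and TAI mice, limma called 0 of the 8 genes and 0 of all 13056 (0%), with 2 of the 8 (Atoh1 and Sox4, both lower) at an unadjusted p under 0.05, beside 1680 genes (12.9%, 1.64% higher and 11.2% lower) overall. The voom fit of recovered reads also called 0 genes there.

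Most genes had lower FPKM in irradiated mice. The median log2 fold change of all genes tested was -0.23 for TAI minus control, -0.13 for TAI/IVIg minus TAI and -0.39 for TAI/IVIg minus control, and setting the library medians equal brought these to 0.05, 0.08 and 0.10. The split of calls moved with that choice, from 1150 higher and 3411 lower to 2159 and 1823 in TAI against control, and from 1183 and 4880 to 2880 and 1894 in TAI/IVIg against control. With library medians equal, the 10 genes gave 3 higher and 0 lower calls in TAI and 3 higher and 1 lower in TAI/IVIg against control. Each gene below is therefore also placed against these medians.

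**Figure D1:**
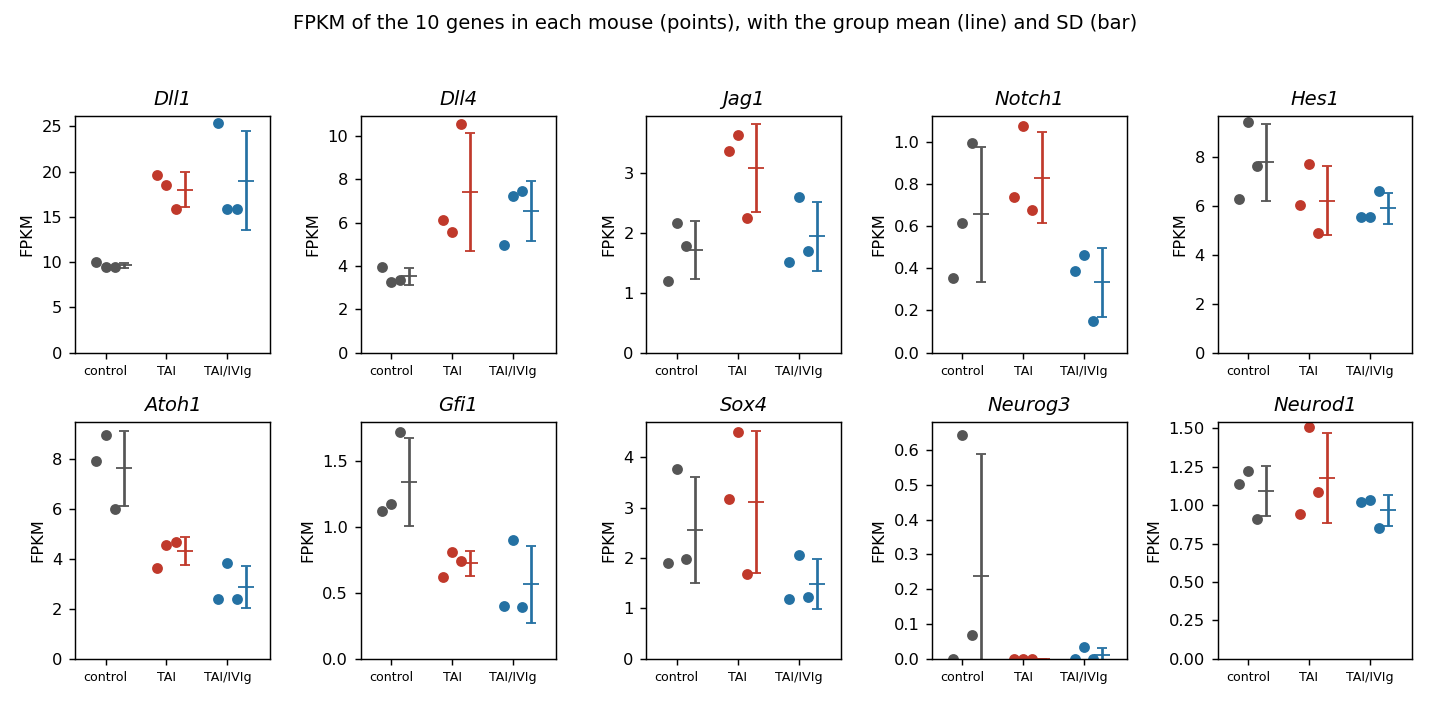
FPKM of the 10 genes (linear axes from 0), with a point for every mouse, 3 in each of the groups named on the axis, and a line and bar for the group mean and SD. The Dll1 and Dll4 points of both irradiated groups lie above all control points, and the Atoh1 and Gfi1 points lie below them. The lower SD bars of Neurog3 are cut off at 0.

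The promoters of the genes that were called in both irradiated groups are shown because HES proteins and RBPJ act through short DNA motifs. The sequences are the 250 bases before the RefSeq start (GRCm38.p6), 5′ to 3′ on the strand of the gene, with capitals at CACGCG and CACNAG, motifs that HES repressors bind, and at TGGGAA, the core bound by RBPJ, on either strand. They are for Atoh1 chr6:64728875-64729124 (plus strand), for Dll1 chr17:15376933-15377182 (minus strand) and for Dll4 chr2:119325534-119325783 (plus strand).
Atoh1: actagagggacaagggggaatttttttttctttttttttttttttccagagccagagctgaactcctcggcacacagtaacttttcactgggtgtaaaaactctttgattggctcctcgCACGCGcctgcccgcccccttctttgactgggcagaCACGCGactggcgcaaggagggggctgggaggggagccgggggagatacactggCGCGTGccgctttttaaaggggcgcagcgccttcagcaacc
Dll1: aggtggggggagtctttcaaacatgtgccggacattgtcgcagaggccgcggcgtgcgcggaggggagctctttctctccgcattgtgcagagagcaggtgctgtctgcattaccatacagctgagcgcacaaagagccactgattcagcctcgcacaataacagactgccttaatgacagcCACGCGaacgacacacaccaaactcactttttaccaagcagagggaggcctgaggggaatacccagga
Dll4: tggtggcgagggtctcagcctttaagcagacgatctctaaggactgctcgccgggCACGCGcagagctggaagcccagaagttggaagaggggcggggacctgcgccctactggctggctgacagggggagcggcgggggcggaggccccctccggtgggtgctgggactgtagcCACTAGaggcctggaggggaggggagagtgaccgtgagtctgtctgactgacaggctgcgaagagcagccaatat
The Atoh1 window holds CACGCG 3 times, beginning 131, 95 and 41 bases before the start, the last on the opposite strand. The Dll1 window shown holds it once, 68 bases before the start, and the Dll4 window once, 195 bases before it, with a CACNAG 75 bases before it. None of the 3 windows shown holds TGGGAA. The window before another RefSeq start of Dll1 (chr17:15375824-15376073, minus strand) holds none of the motifs. CACGCG is not particular to the called genes, since the windows of Jag1, Neurod1, Neurog3 and Sox4 hold it too, while those of Notch1 and Gfi1 do not. Among all 32851 promoter windows of this length, 7.62% hold CACGCG at least once and 0.225% hold it 3 or more times, 36.7% hold CACNAG and 21.6% hold TGGGAA. These matches describe letters in a window and do not show binding.

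Dll1 (ENSMUSG00000014773, chr17:15367354-15376872, minus strand, GRCm38), a Delta ligand found on secretory progenitors, was the most abundant of the ligands. It measured 9.997, 9.46 and 9.50 FPKM in the control mice, 19.6, 18.6 and 15.9 FPKM in the TAI mice and 25.3, 15.8 and 15.9 FPKM in the TAI/IVIg mice. Every irradiated mouse lay above every control mouse, and both irradiated groups overlapped each other. On the log2 scale the difference was 0.83 in TAI against control (SE 0.18, limma adjusted p = 0.0096) and 0.88 in TAI/IVIg against control (SE 0.18, limma adjusted p = 0.00516). Relative to the median of all genes these rises were 1.07 and 1.27. The call held in each of 19 alternative settings in both comparisons, with log2 fold changes of 0.77 to 1.13 and 0.66 to 1.37. TAI/IVIg mice differed from TAI mice by 0.05 (95% interval -0.37 to 0.46), which turned to -0.17 without TAI/IVIg mouse 1. A gene on the opposite strand shares 867 exonic bases with Dll1, and whether reads were counted by strand is not given in the sources used here.

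Dll4 (ENSMUSG00000027314, chr2:119325784-119335962, plus strand), a Delta ligand of crypt secretory cells that is also well known from endothelium, showed a like rise. Its levels were 3.97, 3.26 and 3.34 FPKM in the control mice, 6.11, 5.56 and 10.5 FPKM in the TAI mice and 4.95, 7.21 and 7.46 FPKM in the TAI/IVIg mice. Again no irradiated mouse reached down to the control range, and TAI mouse 3 stood highest. The log2 fold changes were 0.85 in TAI against control (SE 0.23, limma adjusted p = 0.0215) and 0.72 in TAI/IVIg against control (SE 0.23, limma adjusted p = 0.0308). The TAI call was lost without control mouse 2 or 3 or TAI mouse 3 (limma adjusted p = 0.0687, 0.0634 and 0.0515, the last with a log2 fold change of 0.60), and the TAI/IVIg call without control mouse 2 or 3 or TAI/IVIg mouse 2 or 3 (limma adjusted p from 0.077 to 0.0976). Without a filter both calls were lost (limma adjusted p = 0.0512 and 0.0684).

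Endothelial markers were compared between these groups as well. The 12 endothelial markers, none of them at 0 in any group, summed to 39.9 to 73.6 FPKM in control, 63.1 to 88.4 FPKM in TAI and 35.4 to 54.2 FPKM in TAI/IVIg mice. The control sums overlapped those of both irradiated groups, while all TAI sums lay above all TAI/IVIg sums. Of these markers 1 (Esam, an endothelial adhesion molecule) was called higher in TAI against control, beside 8.81% of all genes. In TAI/IVIg against control 0 were called, beside 46.4% of all genes. Dll4 was above control in both irradiated groups, and the part of endothelium in its values in either group was not tested.

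Jag1 (ENSMUSG00000027276, chr2:137081456-137116644, minus strand), a Jagged ligand used in epithelium, vessels and stroma, stood at 1.19, 2.17 and 1.77 FPKM in control, 3.36, 3.64 and 2.25 FPKM in TAI and 1.52, 2.60 and 1.70 FPKM in TAI/IVIg mice. The TAI mice lay above all control mice, by a narrow margin in TAI mouse 3, and the TAI/IVIg mice overlapped both other groups. TAI minus control came to 0.59 on the log2 scale, short of a call (SE 0.21, limma adjusted p = 0.0584). A call was reached with the replicate number as a block (limma adjusted p = 0.0343), with library medians equal (log2 fold change 0.88, limma adjusted p = 0.00734), with quantile normalization (0.78, limma adjusted p = 0.0139), and without TAI mouse 3 or TAI/IVIg mouse 2 (limma adjusted p = 0.0424 and 0.0491). In TAI/IVIg against control it was 0.11 (limma adjusted p = 0.672), and 0.60 (limma adjusted p = 0.0241) with library medians equal or 0.54 (limma adjusted p = 0.0476) with quantile normalization.

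The 5 Notch ligands together (Dll1, Dll3, Dll4, Jag1 and Jag2) summed to 15.6, 15.5 and 15.2 FPKM in control mice, 30.4, 29.4 and 29.7 FPKM in TAI mice and 32.4, 26.4 and 25.6 FPKM in TAI/IVIg mice. The sums of the irradiated mice lay well above those of the controls, with little spread within the control and TAI groups. Dll1 made up most of each sum. Jag2 missed the filter at 0.532 ± 0.0764 FPKM in control mice, 1.31 ± 0.341 in TAI mice and 0.624 ± 0.129 with IVIg (SD, n = 3 per group). In a fit of the recovered read counts with limma voom, whose filter of at least 10 reads in at least 3 mice was chosen after seeing the data, Jag2 was higher in TAI than in control by 1.26 on the log2 scale (adjusted p = 0.0112). Dll3 had at most 2 reads in any mouse.

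Notch1 (ENSMUSG00000026923, chr2:26457903-26516663, minus strand), the main Notch receptor of crypt progenitors, stayed under the filter. It had 0.356, 0.616 and 0.994 FPKM in control mice (88, 155 and 245 reads), 0.738, 1.07 and 0.674 FPKM in TAI mice (180, 249 and 175 reads) and 0.387, 0.463 and 0.151 FPKM in TAI/IVIg mice (99, 112 and 36 reads). All 3 TAI/IVIg mice lay below all 3 TAI mice, and the control mice spanned nearly the whole range. In the voom fit with the read filter, TAI/IVIg minus TAI was -1.42 on the log2 scale (SE 0.47, limma adjusted p = 0.277), 0.42 in TAI against control (limma adjusted p = 0.486) and -0.99 in TAI/IVIg against control (limma adjusted p = 0.127).

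Among the other receptors only Notch2 was tested. Notch2 measured 3.50 ± 2.74 FPKM in control mice, 2.14 ± 0.71 in TAI mice and 1.25 ± 0.676 in TAI/IVIg mice (SD, n = 3 per group), and its log2 fold changes of -0.38 in TAI against control and -0.89 in TAI/IVIg against control did not pass (limma adjusted p = 0.473 and 0.0953). Notch3, a receptor of vascular smooth muscle, was at 0.304 ± 0.149, 0.809 ± 0.32 and 0.354 ± 0.128 FPKM in the same order (SD, n = 3), with a voom log2 fold change of 1.44 in TAI against control (limma adjusted p = 0.045). The 4 receptors summed to 3.34, 3.74 and 8.92 FPKM in control, 4.46, 4.89 and 4.95 FPKM in TAI and 2.59, 3.45 and 1.42 FPKM in TAI/IVIg mice. Control mouse 3 stood apart in this sum, and its 13 leukocyte markers summed to 490 FPKM against 71.0 and 123 FPKM in the other 2 control mice. The part of leukocytes in that receptor sum was not tested.

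**Figure D2:**
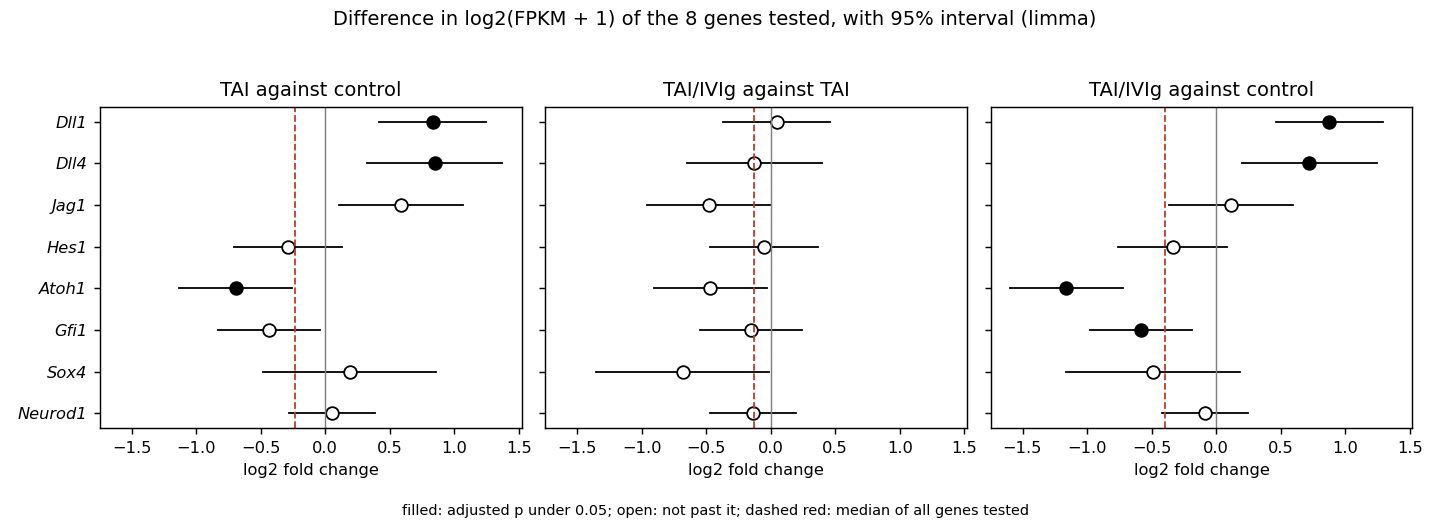
Log2 fold change on the log2(FPKM + 1) scale of the 8 genes tested, with 95% intervals from limma, in the 3 comparisons. Filled circles mark an adjusted p under 0.05 and the dashed line is the median of all genes tested. Dll1 and Dll4 lie right of 0 and Atoh1 left of it in both comparisons with control, and 0 circles are filled in TAI/IVIg against TAI.

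Genes that process ligands and receptors moved in both directions. Of 22 listed, 18 were tested, and 3 were called higher and 2 lower in TAI against control, with a median log2 fold change of -0.11 beside -0.23 for all genes. Furin, the protease that cuts the Notch precursor, went from 7.57 ± 0.898 up to 12.8 ± 1.26 FPKM (SD, n = 3), or 0.69 on the log2 scale (limma adjusted p = 0.00695). Numb, an inhibitor of Notch, rose by 0.53 (limma adjusted p = 0.0198), and Adam10, the sheddase that cuts activated Notch, rose by 0.42 (limma adjusted p = 0.0232). Lfng, a Fringe sugar transferase that tunes which ligands Notch answers to, fell by 1.14 (limma adjusted p = 0.0459), from 4.25 ± 3.02 to 1.23 ± 0.713 FPKM (SD, n = 3). Its highest control value was 7.72 FPKM beside a control median of 2.80, and it passed the filter only with its control values. Aph1a, a gamma-secretase subunit, fell by 0.60 from 32.2 ± 1.35 to 20.9 ± 0.324 FPKM (SD, n = 3, limma adjusted p = 0.00358). Both falls were no longer called with library medians equal (log2 fold changes -0.85 and -0.31, limma adjusted p = 0.0706 and 0.143).

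In the nuclear complex that reads the signal, 8 of 10 listed genes were tested and 1 was called. Kat2b, a histone acetyltransferase that acts with the Notch complex, rose by 0.63 in TAI against control (limma adjusted p = 0.0279) and by 0.54 in TAI/IVIg against control (limma adjusted p = 0.0388). Rbpj, the DNA-binding partner of Notch, was at 2.68 ± 0.457, 2.34 ± 0.273 and 1.68 ± 0.551 FPKM in control, TAI and TAI/IVIg mice (SD, n = 3), with log2 fold changes against control of -0.14 and -0.47 that did not pass (limma adjusted p = 0.575 and 0.0584).

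Hes1 (ENSMUSG00000022528, chr16:30064384-30067796, plus strand), the HES repressor most used as a readout of Notch in the gut, showed no called change. Its FPKM values were 6.30, 9.44 and 7.63 in control mice, 6.05, 7.72 and 4.90 in TAI mice and 5.54, 5.55 and 6.62 in TAI/IVIg mice. The 3 groups overlapped, with control mouse 2 highest and TAI mouse 3 lowest. Differences on the log2 scale were -0.29 in TAI against control (95% interval -0.71 to 0.13, limma adjusted p = 0.254) and -0.34 in TAI/IVIg against control (95% interval -0.76 to 0.08, limma adjusted p = 0.16), close to the medians of all genes. With library medians equal they turned to 0.000388 and 0.15, so their sign rests on the scaling.

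Of the 12 genes on the list of Notch targets, which takes in further members of the HES family, 5 were tested. In each comparison with control 1 was called higher and 1 lower. Whether each listed gene answers to Notch in this tissue was not tested, so these calls are no measure of Notch signal. Hes2, another member of the HES family, rose from 1.75 ± 0.441 FPKM in control to 5.34 ± 1.71 in TAI and 9.999 ± 4.06 in TAI/IVIg mice (SD, n = 3 per group), log2 fold changes against control of 1.19 and 1.94 (limma adjusted p = 0.0149 and 0.00143). Olfm4, a stem cell gene that Notch supports and which is also on the list of stem cell markers, fell by 3.03 in TAI and fell by 3.85 in TAI/IVIg against control (limma adjusted p = 0.00844 and 0.00214), from 27.5 ± 29.4 FPKM to 1.62 ± 1.13 and 0.449 ± 0.508 (SD, n = 3 per group). Hes6 and Dtx1 were not called. Hes5, a classical target in nervous tissue, had at most 4 reads in any mouse.

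Over the whole Notch pathway, 35 of 53 listed genes were tested. In TAI against control 7 were called higher and 3 lower (median log2 fold change -0.05), and in TAI/IVIg against control 7 and 5 (median -0.06), against medians over all genes of -0.23 and -0.39. The share of all genes called was 34.9% (8.81% higher and 26.1% lower) and 46.4% (9.06% higher and 37.4% lower). Over both directions, the 10 and 12 pathway genes called are no larger a share of the 35. By direction, the higher calls were a larger share than among all genes and the lower calls a smaller one, a split that was not tested. With library medians equal the pathway calls became 12 higher and 1 lower, and 15 higher and 1 lower. The count of 10 in TAI against control dropped to 5 without control mouse 2 and to 6 without control mouse 3 or TAI mouse 1, and the count of 12 in TAI/IVIg against control dropped to 7 without TAI/IVIg mouse 3.

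**Figure D3:**
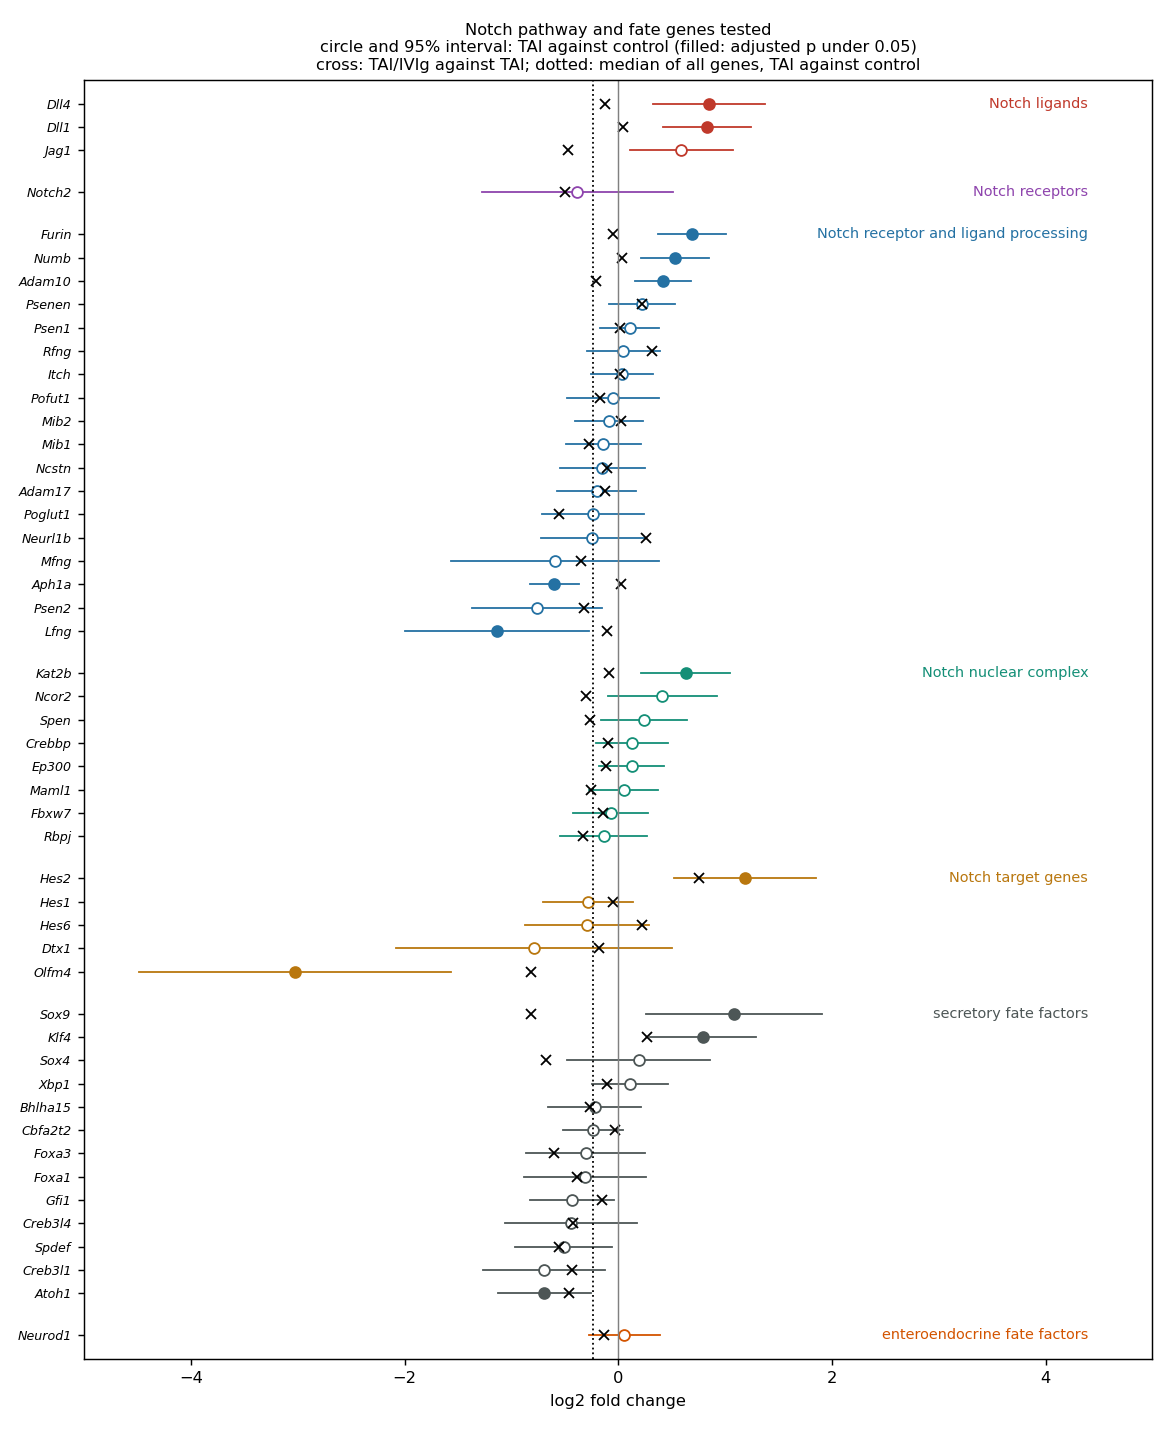
Log2 fold change of every tested Notch pathway and fate gene, grouped by role. Circles with 95% intervals show TAI against control (filled where the limma adjusted p is under 0.05), crosses show TAI/IVIg against TAI, and the dotted line is the median of all genes in TAI against control. Ligands lie right of 0, Olfm4 lies farthest left at -3.03, and most secretory fate factors have both marks left of 0.

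Atoh1 (ENSMUSG00000073043, chr6:64729125-64731245, plus strand), the basic helix-loop-helix factor required for secretory fate, was lower after irradiation. It measured 7.92, 8.96 and 6.02 FPKM in control mice, 3.66, 4.57 and 4.68 FPKM in TAI mice and 2.39, 3.83 and 2.42 FPKM in TAI/IVIg mice, on 86 to 336 reads. No irradiated mouse reached the control range, and the TAI/IVIg values lay lowest except that TAI/IVIg mouse 2 stood just above TAI mouse 1. Atoh1 fell by 0.69 on the log2 scale in TAI against control (SE 0.19, limma adjusted p = 0.0234) and by 1.16 in TAI/IVIg against control (SE 0.19, limma adjusted p = 0.00208). Beyond the median of all genes the falls were -0.46 and -0.77.

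The calls on Atoh1 differed in how they held across settings. The one in TAI/IVIg against control held in each of 18 alternatives, with log2 fold changes of -1.42 to -0.65. The one in TAI against control was lost in 6 of 18, which were library medians equal (-0.41, limma adjusted p = 0.139), quantile normalization (-0.40, limma adjusted p = 0.141), no filter (limma adjusted p = 0.0518), and leaving out control mouse 1, control mouse 2 or TAI mouse 1 (limma adjusted p = 0.0531, 0.0844 and 0.0944).

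The ratio of Atoh1 to Hes1 within a mouse does not depend on the scaling of its library. It was 1.26, 0.949 and 0.789 in control mice, 0.605, 0.593 and 0.955 in TAI mice and 0.431, 0.690 and 0.365 in TAI/IVIg mice, with means of 0.999 ± 0.238, 0.718 ± 0.206 and 0.495 ± 0.172 (SD, n = 3 per group). All TAI/IVIg mice lay below all control mice. TAI mice overlapped both other groups, since TAI mouse 3 lay within the control range.

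**Figure D4:**
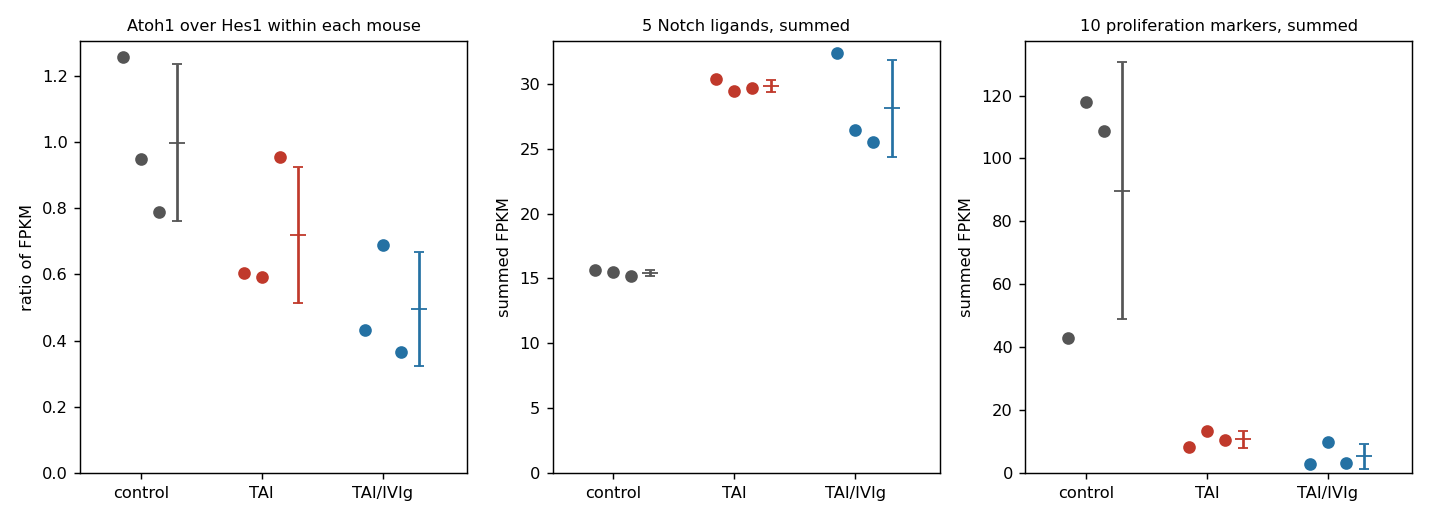
Left, the FPKM ratio of Atoh1 to Hes1 in each mouse. Middle and right, the summed FPKM of 5 Notch ligands and of 10 proliferation markers. Points are mice, lines and bars are group means and SD, and axes are linear from 0. Ligand sums are 15.2 to 15.6 in control and 25.6 to 32.4 in irradiated mice, while proliferation sums are 42.8 to 118 in control and 2.77 to 13.5 in irradiated mice.

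Gfi1 (ENSMUSG00000029275, chr5:107716657-107726036, minus strand), a zinc finger repressor downstream of ATOH1, stood at 1.12, 1.17 and 1.72 FPKM in control, 0.623, 0.809 and 0.740 FPKM in TAI and 0.401, 0.905 and 0.393 FPKM in TAI/IVIg mice, on 21 to 95 reads a mouse. All irradiated mice lay below all control mice. Only its 3 control values reached 1 FPKM, so the filter admitted it through the group where it was highest. Against control, TAI mice differed by -0.43 on the log2 scale (SE 0.17, limma adjusted p = 0.0832), and in TAI/IVIg against control the difference of -0.58 was called (SE 0.17, limma adjusted p = 0.0235). The latter call was lost with library medians equal (-0.09, limma adjusted p = 0.571), with quantile normalization (-0.21, limma adjusted p = 0.204), without a filter or with only the 6 mice compared (limma adjusted p = 0.0536 in both), and without TAI/IVIg mouse 1 or 3 (limma adjusted p = 0.0664 and 0.0757).

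Sox4 (ENSMUSG00000076431, chr13:28948919-28953713, minus strand), an SRY-box factor of secretory progenitors, varied widely. It was at 1.91, 3.76 and 1.98 FPKM in control, 3.16, 4.50 and 1.68 FPKM in TAI and 1.19, 2.06 and 1.22 FPKM in TAI/IVIg mice. The mouse numbered 2 was highest in every group, and all groups overlapped. The log2 fold changes were 0.19 in TAI against control (95% interval -0.48 to 0.86) and -0.49 in TAI/IVIg against control (95% interval -1.16 to 0.18), neither called (limma adjusted p = 0.637 and 0.197). Of its exonic bases, 2616 of 4795 are shared with a gene on the opposite strand, so its reads may belong to either.

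Counting groups that did not overlap at all, 3 of the 8 genes were higher (Dll1, Dll4 and Jag1) and 2 lower (Atoh1 and Gfi1, the latter tested only through its control values) in TAI against control, beside 15.1% and 38.0% of all genes (53.0% in all). Between TAI/IVIg and control mice 2 were higher and 2 lower (again Atoh1 and Gfi1), beside 11.5% and 44.3% (55.8% in all). TAI/IVIg and TAI mice overlapped in all 8 genes, whereas 19.1% of all genes did not overlap (3.09% higher and 16.1% lower).

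Among 28 further fate factors listed, 10 were tested. In TAI against control 2 of these were called higher and 0 lower (limma, with 2 lower at an unadjusted p under 0.05 and a median log2 fold change of -0.27), beside 8.81% and 26.1% of all genes and a median of -0.23. TAI/IVIg mice had 1 called higher and 5 lower against control (median -0.59), beside 9.06% and 37.4% of all genes and a median of -0.39. With Atoh1, Gfi1, Sox4 and Neurod1 included, 14 of 33 fate factors were tested, with 2 higher and 1 lower in TAI and 1 higher and 7 lower in TAI/IVIg against control. Spdef, which matures goblet and Paneth cells, had 5.83 ± 1.38 FPKM in control mice, 3.77 ± 0.806 in TAI mice and 2.24 ± 0.512 in TAI/IVIg mice (SD, n = 3 per group), with log2 fold changes against control of -0.51 (limma adjusted p = 0.0754) and -1.07 (limma adjusted p = 0.00327). Also called lower in TAI/IVIg against control were Creb3l1 and Creb3l4, which act in the secretory pathway, and the pioneer factors Foxa1 and Foxa3.

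The 2 factors that rose in TAI mice have roles beyond the secretory lineage. Klf4, found in goblet cells and also in differentiated surface enterocytes, rose from a control level of 92.7 ± 21.6 FPKM to 159 ± 18.4 FPKM in TAI (SD, n = 3 per group), by 0.79 on the log2 scale (limma adjusted p = 0.0231). Enterocyte markers moved with it, as their sums given with the other markers show, and their part in the Klf4 level was not tested. Sox9, a factor of stem and Paneth cells, rose by 1.08 (limma adjusted p = 0.0463), from 1.94 ± 0.883 to 5.32 ± 2.26 FPKM (SD, n = 3).

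The counts over all 14 moved with the settings. With the replicate number as a block, 6 fate factors were called in TAI against control in place of 3, adding Spdef, Creb3l1 and Creb3l4 to the lower ones. In the same comparison 0 were called without TAI mouse 1 and 1 without control mouse 2 or control mouse 3. With library medians equal, 2 were called higher and 0 lower in TAI, and 1 higher and 1 lower in TAI/IVIg against control. In TAI/IVIg against control the count of 8 dropped to 4 without control mouse 2 or TAI/IVIg mouse 3.

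Markers of absorptive, dividing and secretory cells differed between the groups too. The 12 enterocyte markers summed to 14187 to 22664 FPKM in control, 31910 to 52524 FPKM in TAI and 47053 to 51021 FPKM in TAI/IVIg mice, with 7 called higher in TAI and 8 in TAI/IVIg against control and 0 called lower. The 10 proliferation markers summed to 42.8 to 118 FPKM in control, 8.16 to 13.5 FPKM in TAI and 2.77 to 9.72 FPKM in TAI/IVIg mice. All 10 were called lower in both irradiated groups, beside 26.1% of all genes in TAI and 37.4% in TAI/IVIg. Ccnb1, Cdk1 and Aurkb reached 1 FPKM in no irradiated mouse, and Mki67, Top2a and Ccna2 also passed the filter only with control values. The lower calls of these markers were thus partly set by the filter. The 10 goblet markers summed to 2324 to 3119 FPKM in control, 3586 to 4682 FPKM in TAI and 2052 to 3509 FPKM in TAI/IVIg mice, with 3 called higher (Fcgbp, Muc2 and Zg16, mucus components) and 2 lower (Agr2 and Bcas1) in TAI against control. The 11 Paneth markers summed to 1443 to 7508, 2760 to 7425 and 210 to 2023 FPKM in the same order. No marker on these lists was at 0 in a whole group. Atoh1 was therefore lower in TAI mice whose summed goblet markers lay above all controls, and the part of cell numbers in its level was not tested.

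Neurog3 (ENSMUSG00000044312, chr10:62133090-62134763, plus strand), the factor that starts enteroendocrine fate, was close to undetected. Its reads numbered 0, 19 and 2 in control mice, 0 in all 3 TAI mice and 0, 1 and 0 in TAI/IVIg mice, which is 0 to 0.642 FPKM. Nearly all of them came from control mouse 2. No difference between groups was detectable at this depth.

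Neurod1 (ENSMUSG00000034701, chr2:79452521-79456751, minus strand), which acts after NEUROG3, measured 1.14, 1.22 and 0.910 FPKM in control, 0.941, 1.51 and 1.08 FPKM in TAI and 1.02, 1.04 and 0.852 FPKM in TAI/IVIg mice, on 39 to 67 reads. The groups overlapped throughout. The log2 fold change was 0.05 in TAI against control (95% interval -0.28 to 0.39, limma adjusted p = 0.794) and -0.09 in TAI/IVIg against control (95% interval -0.42 to 0.25, limma adjusted p = 0.647), the latter turning to 0.41 with library medians equal. It was the only one of 17 listed enteroendocrine fate factors to pass the filter. Its exonic bases shared with Cerkl (same strand) and Gm26755 (opposite strand) sum to 355, beside an exonic length of 2729. Reads there may belong to another gene.

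Of the marker genes of enteroendocrine cells, Chga, a granule protein, fell by 1.65 in TAI against control (limma adjusted p = 0.000315) and Cck, cholecystokinin, fell by 1.28 (limma adjusted p = 0.0134), whereas Sst, somatostatin, rose by 1.42 (limma adjusted p = 0.00168). Altogether 10 of the 12 markers were tested, with 1 called higher and 2 lower. Their summed FPKM overlapped between the groups, at 177 to 210, 172 to 265 and 201 to 217 in control, TAI and TAI/IVIg mice.

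Whether IVIg changed these genes beyond irradiation was not resolved for any of them. Dll1, Dll4, Hes1, Gfi1 and Neurod1 differed between TAI/IVIg and TAI mice by -0.15 to 0.05 on the log2 scale, and each 95% interval included 0. Hes1, Dll4, Gfi1 and Neurod1 changed from below to above 0 with library medians equal (0.15, 0.08, 0.05 and 0.07). The other 3 leaned lower. Sox4 had a log2 fold change of -0.68 (95% interval -1.35 to -0.01, limma adjusted p = 0.382), Jag1 of -0.47 (95% interval -0.96 to 0.01, limma adjusted p = 0.389) and Atoh1 of -0.47 (95% interval -0.90 to -0.03, limma adjusted p = 0.377). All 3 were below the median of all genes, -0.13, and remained below 0 in each of 18 alternatives.

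Elsewhere in the pathway, Hes2 leaned higher in TAI/IVIg than in TAI mice (log2 fold change 0.76, limma adjusted p = 0.364) and Poglut1, a sugar transferase that modifies Notch, lower (-0.55, limma adjusted p = 0.364). Of the 35 pathway genes tested 0 passed, and of the 14 fate factors 0 passed, with 4 of the latter lower at an unadjusted p under 0.05 beside 11.2% of all genes. Spdef had the smallest p among them (log2 fold change -0.55, limma adjusted p = 0.36).

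Markers of other tissue layers differed in the same direction between TAI/IVIg and TAI mice. The fibroblast markers summed to 105 to 133 FPKM in TAI and 30.7 to 73.5 FPKM in TAI/IVIg mice (median log2 fold change of the 8 markers -0.997, all 8 lower at an unadjusted p under 0.05), and the smooth muscle markers to 753 to 1123 and 166 to 825 FPKM (median -1.15, 8 of 9 lower). The 12 endothelial markers had a median of -0.54 (5 of 12 lower), the 11 Paneth markers of -2.74 (10 of 11 lower) and the 10 goblet markers of -0.86 (9 of 10 lower). In these lists 0 markers passed the adjusted threshold, and 0 were at 0 in a whole group. Other lists moved less. The 10 enteroendocrine markers tested had a median of -0.17 (1 lower at an unadjusted p under 0.05). The 7 tuft markers tested had a median of -0.26 (2 lower) and the 9 leukocyte markers tested of -0.14 (0 lower). Of all genes tested, 69.6% were below 0 and 11.2% lower at an unadjusted p under 0.05. Jag1, Notch1, Sox4 and Atoh1 leaned lower in the same comparison of groups as markers of muscle, connective tissue, goblet cells and Paneth cells. The likeness is between groups and was not followed mouse by mouse, and the part of these tissues in the levels of these genes was not tested.

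**Figure D5:**
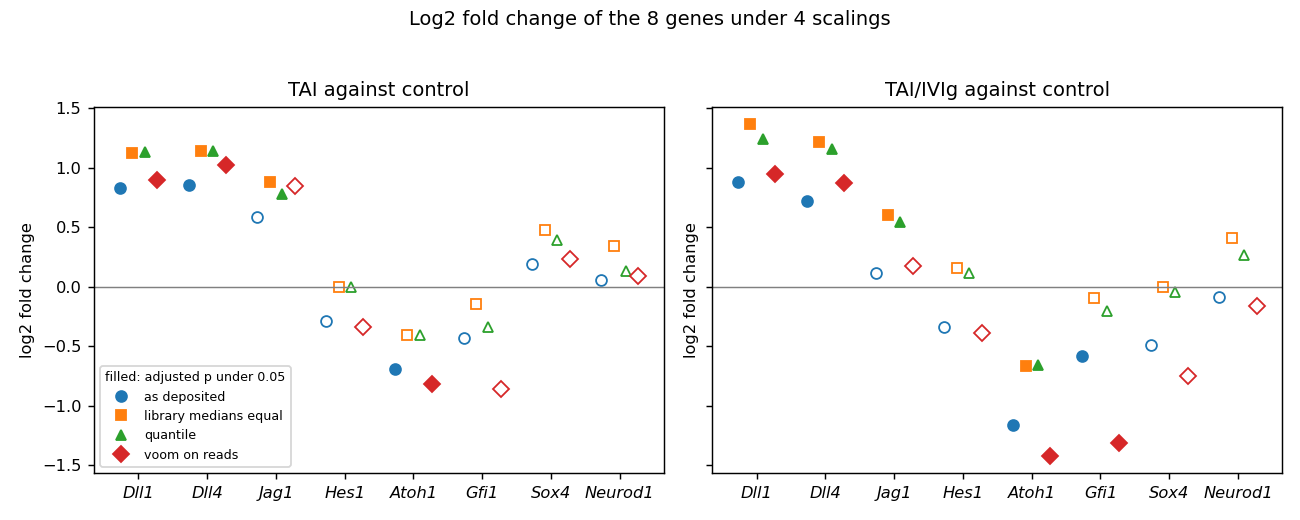
Log2 fold change of the 8 genes in TAI against control and TAI/IVIg against control under 4 treatments of library size. Circles use FPKM as deposited, squares set library medians equal, triangles use quantile normalization and diamonds use limma voom on recovered reads, and filled marks have an adjusted p under 0.05. Dll1 and Dll4 are filled in all, Atoh1 is filled in all for TAI/IVIg against control only, and Jag1 is filled in the squares and triangles.

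Ranked by level in control mice, Dll1 (9.65 FPKM), Hes1 (7.79 FPKM) and Atoh1 (7.63 FPKM) led, with Hes1 and Atoh1 within each other's spread. Dll4 (3.53 FPKM), Sox4 (2.55 FPKM) and Jag1 (1.71 FPKM) followed, Sox4 overlapping both neighbours, and then Gfi1 (1.34 FPKM), Neurod1 (1.09 FPKM), Notch1 (0.655 FPKM) and Neurog3 (0.237 FPKM). In TAI mice Dll1 (18.02 FPKM) and Dll4 (7.40 FPKM) led, the latter overlapping Hes1 (6.22 FPKM), and Atoh1 (4.30 FPKM) lay below Hes1 on average. The sum of all 10 genes was 33.9 to 40.7 FPKM in control, 42.4 to 48.0 FPKM in TAI and 36.7 to 42.7 FPKM in TAI/IVIg mice.

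Across the 9 mice, the tested genes whose log2 levels ran closest to each member were listed as a description, with no test, since group differences set most of the likeness. For Atoh1 they were Gsta4, a glutathione transferase (Pearson r = 0.986), Cd300a (r = 0.976) and the goblet marker Bcas1 (r = 0.974). For Dll1 they were Catsper4 (r = 0.986), 2010005H15Rik (r = 0.984) and Dusp6, a phosphatase that restrains ERK (r = 0.98). Dll4 ran closest to Gm43755 (r = 0.954), Hes1 to Calu (r = 0.952), Gfi1 to Traf3 (r = 0.992) and Neurod1 to Mir8103 (r = 0.914). Jag1 ran closest to Ccl17 (r = 0.965), Sox9 (r = 0.964) and Ammecr1l (r = 0.959), and Sox4 to Ptk7, a Wnt co-receptor (r = 0.986), Wnt2b (r = 0.964) and Efna4 (r = 0.956). Among the members themselves, Atoh1 and Gfi1 ran together (r = 0.826) and each ran opposite to Dll1 (r = -0.851 and -0.84), over the same 9 mice.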

How the data were processed

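Jejunal RNA from 9 mice was analysed, 3 in each group as labelled. The values are FPKM as the authors deposited them, in 9 columns. The submitters' processing notes name FastQC, Trimmomatic, STAR, featureCounts and DESeq2, and the builds mm10 and GRCm38, while strandedness and the annotation release are not given in the sources used here. With GENCODE M21 exon lengths, 98.5% of values with a symbol came out as whole reads (tolerance 0.001), and 31146 of 31685 identifiers had a symbol.

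Differences were tested on log2(FPKM + 1) by limma 3.58.1 (R 4.3.3), using all 9 mice, group as the only term, trended empirical Bayes, genes with 1 FPKM or more in 3 mice or more and Benjamini-Hochberg adjustment per comparison. A call required an adjusted p under 0.05. The fit was also run on simulated reads that had no shift of most genes. That run therefore cannot show how calls behave under the shifts of the medians seen here. A control mouse and the TAI mouse sharing its number deviated from their groups alike (r = 0.271, 0.241 and 0.308). Control and TAI mice of different numbers had r from -0.336 to 0.146. Between TAI/IVIg mice and mice of the other groups, r ran from -0.296 to 0.201 with the same number. With different numbers it ran from -0.381 to 0.408. These values do not settle whether numbers pair mice, and no source says what a number means.

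All 10 members were named. Of each list, up to 3 genes higher and 3 lower with the largest change past the threshold in TAI against control could be named, and likewise in TAI/IVIg against TAI, or there the gene of smallest p, and for each member the 3 genes of highest correlation. Genes named beyond this (among them Dll3, Jag2, Notch2, Notch3, Rbpj, Hes5, Hes6, Dtx1, Spdef in comparisons with control, Creb3l1, Creb3l4, Foxa1 and Foxa3) were picked with their values in view. The members and lists were chosen with earlier results of these data known. Settings varied were the pseudocount (0.1), the filter (none, or a mean of 5 FPKM or more), equal library medians, quantile normalization, no trend, a replicate block, the 6 mice compared, limma voom on recovered reads and each mouse left out. Promoters came from RefSeq, where 9 of 10 members matched.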

Additional observations from a re-analysis of the deposited data

How the results depend on the processing

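Among the 10 genes, the number called in TAI against control (3) was 1 without a filter and 1 to 4 when each mouse was left out, and in TAI/IVIg against control (4) it was 2 without a filter, 2 with a mean FPKM of at least 5, and 2 to 4 when each mouse was left out. Notch pathway genes called (10 and 12) ranged from 5 to 10 and from 7 to 12 when each mouse was left out. Fate factors called in TAI against control (3) were 0 without a filter, 1 with a mean FPKM of at least 5, 6 with the replicate block and 0 to 3 when each mouse was left out. In TAI/IVIg against control (8) they were 5 without a filter, 1 with a mean FPKM of at least 5, 2 with library medians equal, 2 with quantile normalization and 4 to 8 when each mouse was left out. A mean FPKM of at least 5 leaves fewer of these genes tested, and the cause of the other shifts was not tested. In TAI/IVIg against TAI these counts were 0 in each alternative, with 3 genes of all called under the replicate block and 4 without a filter.

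With library medians equal and with quantile normalization, log2 fold changes that changed sign were, in TAI against control, Hes1 (0.000388 and 0.0005745), in TAI/IVIg against TAI, Hes1 (0.15 and 0.11), Neurod1 (0.0651 and 0.137), Dll4 (0.0765 and 0.0198) and Gfi1 (0.0508 and 0.13), and in TAI/IVIg against control, Hes1 (0.15 and 0.11) and Neurod1 (0.41 and 0.27), as did Sox4 with library medians equal only (0.0016). Leaving out a mouse turned Neurod1 in TAI against control (range -0.0528 to 0.13), Sox4 in TAI against control (-0.0482 to 0.47), Hes1 (-0.19 to 0.0948), Dll1 (-0.17 to 0.15) and Dll4 (-0.28 to 0.13) in TAI/IVIg against TAI, and Jag1 in TAI/IVIg against control (-0.0409 to 0.23). The mice were control mouse 3 or TAI mouse 2 for Neurod1, TAI mouse 2 for Sox4 and Hes1, TAI mouse 3 or TAI/IVIg mouse 1 for Dll1 and Dll4, and control mouse 1 or TAI/IVIg mouse 2 for Jag1. None of these results was called. The replicate block changed the calls described for Jag1 and the fate factors and no other call on the 10 genes.

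Depth limits Neurog3, Gfi1, Neurod1 and Notch1, which rest on at most 19, 95, 67 and 249 reads a mouse. Exonic bases shared with genes on the opposite strand also sum to 1482 in Notch1, 273 in Neurog3, 214 in Dll4 and 101 in Gfi1. The added read filter with limma voom was chosen after seeing the data. With 3 mice a group, leaving out a mouse leaves few residual degrees of freedom, and a lost call is not evidence of a smaller effect.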
